A study of Mus musculus with 12 samples.

Results

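The genes described here build the active zone of the photoreceptor ribbon synapse and its link to the ON bipolar cell. They were chosen by name: Ctbp2, Bsn, Pclo, Rims2, Cacna1f, Cacna2d4, Cabp4, Pikachurin, Egflam and Dag1. Pikachurin is the protein that Egflam encodes and has no row of its own, so the 10 names stand for 9 of the 53028 genes in the deposited table, with 82 of its 141450 transcripts. The study sequenced polyadenylated RNA of mouse retina in 12 libraries, 3 in each of 4 groups. The groups were Pilrb1/2-/- (knockout) and Pilrb1/2+/+ (wild type) retina at postnatal day 28 (P28), and knockout and wild-type retina at 12 months. All groups shared the C57BL/6J background; the knockout line came from zygotes edited by CRISPR, and the series describes the deletion as covering Pilra as well as Pilrb1/2, so it is a germline loss in every cell and not in photoreceptors alone. Whether the libraries stem from different mice is not stated in the labels, and the p-values therefore cover the spread between libraries only.

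Rods and cones release glutamate continuously in the dark from terminals that hold a synaptic ribbon, a plate that tethers vesicles above a band of calcium channels. Ribeye, made from the Ctbp2 gene, is the main structural protein of the ribbon; bassoon and piccolino hold it at or build it near the membrane, RIM2 links vesicles to the channel, and the channel itself is CaV1.4 with its alpha2delta4 subunit and the modulator CaBP4. Pikachurin in the cleft binds dystroglycan of the photoreceptor membrane and is known to be needed to align the terminal with the bipolar dendrite tip. In human patients and in mice, loss of the channel genes gives a synaptic form of night blindness or cone dysfunction.

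Library size read back from the smallest steps in the values was 14.7 to 25.9 M reads, so that 3 reads corresponded to 0.111 to 0.192 CPM (counts per M reads); all 9 genes stood far above this floor in every library. Pilrb1 and Pilrb2 could not check the labels, because they did not exceed 0.0520 and 0.0436 CPM in any library, wild type included. Pilra, which the series text also names as deleted and the sample labels do not, went against the knockout label: it had 0.441, 1.16 and 0.819 CPM in P28 knockout, against 0.133, 0.167 and 0.170 CPM in P28 wild type. At 12 months Pilra had 0.0556, 0.309 and 0.293 CPM in knockout and 0.159, 0.221 and 0.268 CPM in wild type, with overlap. Which exons were removed is not stated, so knockout and wild type below mean the libraries so labelled, and each direction rests on those labels. Xist marked libraries 2 and 3 of the P28 knockout and libraries 1 and 2 of the 12-month wild type as female, and all others as male, so sex and genotype were not balanced at either age. Library 2 of the P28 knockout and library 2 of the 12-month knockout had the widest residual spread among the knockout libraries (0.321 and 0.256 on the log2 scale). They also had the highest sums of lens genes in their groups, 4983 and 715.0 CPM. Wild type had high lens sums too, 599 and 1780 CPM in P28 libraries 2 and 3. The residual spread of P28 knockout library 3, 0.254, was close to that of 12-month knockout library 2. At 12 months the genotype difference of a gene fell with the GC content of its transcript over all tested genes (Spearman rho -0.762), and at P28 less steeply (rho -0.329). With transcript length it rose, and here more at P28 (rho 0.427) than at 12 months (rho 0.196). The members' 12-month values after removal of the GC and length trend are given beside their results. Rod genes summed to 23743 to 30096 CPM in 12-month knockout retinas, against 36284 to 43306 CPM in 12-month wild-type retinas, and cone genes to 746 to 852 against 1100 to 1208 CPM. Of 8 rod genes 1 was called higher and 4 lower at 12 months, and of 7 cone genes 5 were called lower; no marker gene was under the floor in all libraries. At P28 rod genes summed to 26059 to 29800 CPM in knockout and 33197 to 43905 CPM in wild type, and cone genes to 759 to 1058 against 1025 to 1256 CPM; 3 of the 7 cone genes and none of the rod genes were called lower there. In bulk RNA, fewer cells of a type and less RNA per cell cannot be told apart, and the part of these sums in the results below was not tested.

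At 12 months the active zone genes did not move as a block. Cacna2d4, the alpha2delta subunit of the photoreceptor channel, and Bsn, which anchors the ribbon, were lower in knockout retinas and passed the test, while Rims2, which links vesicles to the channel, rose by 25.3% in mean CPM. Cacna2d4 fell by 39.3% in mean CPM and Bsn fell by 25.04%. That is 3 of 9 members past an adjusted p of 0.05 in limma, where 39.6% of the 16486 tested genes passed, so the share of members called was no higher than the share of all genes. By direction, 1 member was called higher (16.1% of all genes) and 2 lower (23.5% of all genes). Under quantile normalization the count by direction was 0 higher and 4 lower: Rims2 lost its call, while Ctbp2 and Egflam passed as lower. With the GC and length trend removed 2 members passed, 1 each way, and 11% of all genes did, 24.6% of them higher, against 40.6% of the called genes as deposited. With a term for sex 3 passed as well, and with both the trend removed and a sex term 0 members passed (0.952% of all genes did). The median log2 difference of the 9 members was -0.21, against -0.03 over all tested genes, with 2 members above 0 and 7 below. The libraries of the 2 genotypes did not overlap for 7 of the 9 members, where 59.1% of all tested genes had groups that did not overlap.

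At P28 none of the 9 members passed in limma, where 1.49% of all genes did; 4 members had an unadjusted p under 0.05, as had 21.4% of all genes. The members' median log2 difference was 0.11, against -0.01 over all genes, with 6 above 0 and 3 below. Knockout and wild-type libraries did not overlap for 3 of 9 members, Rims2 and Cacna1f above and Cabp4 below, against 23.8% of all genes. Over both ages together 3 members passed (35.2% of all genes did), 2 higher (14.3% of all genes) and 1 lower (20.8%): Rims2 rose by 0.29 ± 0.06 on the log2 scale (SE, adjusted p = 0.00338), Pclo rose by 0.23 ± 0.08 (adjusted p = 0.0495) and Cabp4 fell by 0.19 ± 0.06 (adjusted p = 0.0337). Under quantile normalization the count was 0 higher and 4 lower (Bsn, Cacna2d4, Cabp4 and Egflam), and Rims2 and Pclo missed the threshold at 0.13 and 0.072 (adjusted p = 0.0837 and 0.498). With a sex term Pclo missed it too (0.23, adjusted p = 0.0574), as it did with no expression filter (adjusted p = 0.106) and by summed transcript RPKM (adjusted p = 0.05005). Cabp4 missed it under median-of-ratios rescaling (-0.17, adjusted p = 0.0531). Both Pclo and Cabp4 missed it with both knockout libraries numbered 2 left out (0.19 and -0.15, adjusted p = 0.0967 and 0.0710). With the GC and length trend removed, Pclo and Cabp4 had -0.12 and 0.031 over both ages and the only member that passed was Rims2. The Pclo call was lost in 10 of 12 fits that each left out 1 library, all but those without P28 knockout library 1 or P28 wild-type library 2 (values from 0.16 to 0.24 where lost). The Cabp4 call was lost in 7, those without P28 knockout library 3, P28 wild-type library 1 or 3, 12-month knockout library 2 or 3, or 12-month wild-type library 2 or 3 (values from -0.20 to -0.15).

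**Figure D1:**
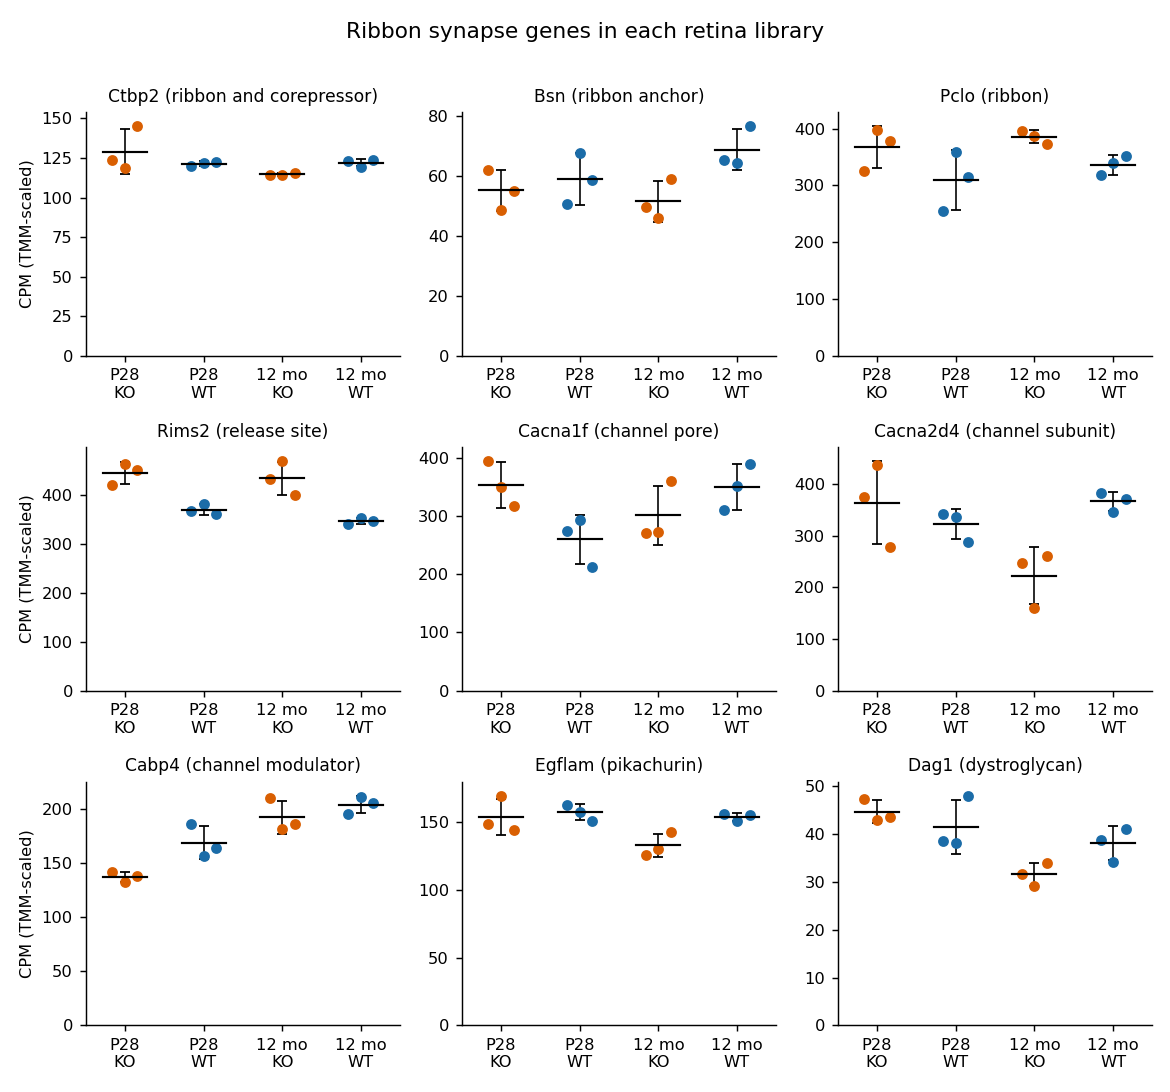
CPM of the 9 genes (y axis, TMM-scaled CPM, from 0) in each of the 12 libraries, knockout in orange and wild type in blue at P28 and at 12 months; lines are group means and bars the SD of 3 libraries. At 12 months the Cacna2d4 knockout points lie between 160.1 and 261 CPM and the wild-type points between 346 and 382 CPM, while for Rims2 the knockout points lie above the wild-type points at both ages.

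**Figure D2:**
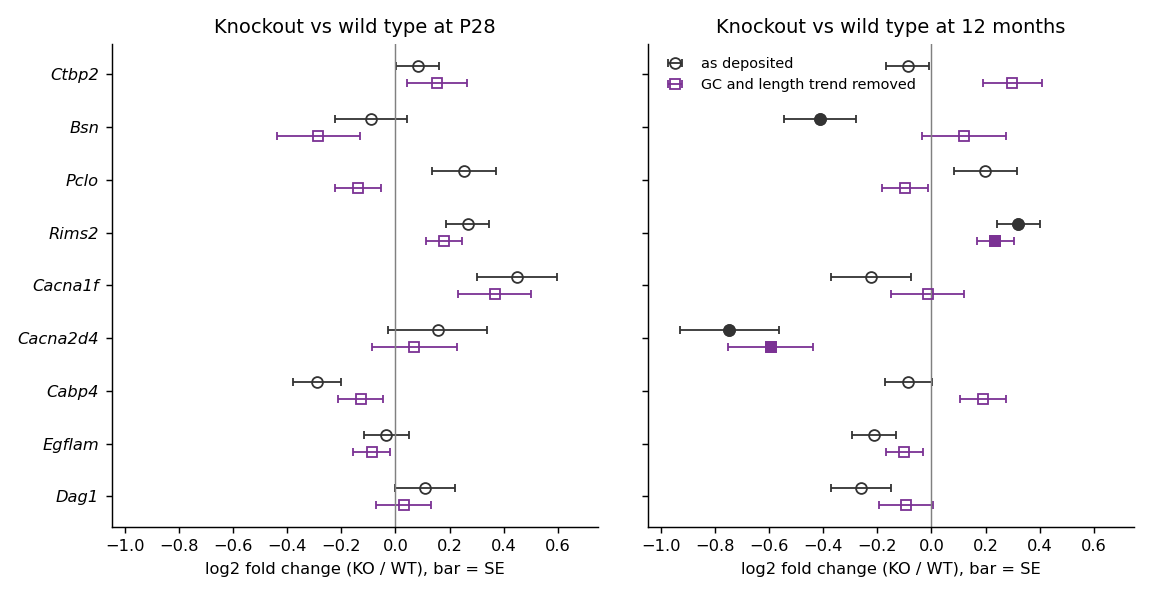
Log2 fold change of knockout over wild type (x axis, bars are SE) for the 9 genes at P28 (left) and 12 months (right), from the deposited values (circles) and after removal of each library's GC and length trend (squares); filled symbols passed an adjusted p of 0.05 in limma. Cacna2d4 and Rims2 are filled in both settings at 12 months, while Bsn lies at -0.41 as deposited and at 0.12 after removal of the trend.

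Ctbp2 (chromosome 7, minus strand, 132987563 to 133124354, GRCm38) makes several proteins from 1 locus. The long form starts in an exon of its own and encodes Ribeye; the others encode the nuclear corepressor CtBP2, which is expressed in most cells. The 3 coding forms differ in what stands before a shared exon at chr7:132999191-132999345. The last 30 bases of each form's own part, in lower case, and the first 30 bases of the shared exon, in capitals, show the junction that tells Ribeye RNA from corepressor RNA.
Ribeye form: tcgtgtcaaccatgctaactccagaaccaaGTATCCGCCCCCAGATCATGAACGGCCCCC
Corepressor form of 445 codons: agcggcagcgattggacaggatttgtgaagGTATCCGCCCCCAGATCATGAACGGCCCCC
Corepressor form of 420 codons: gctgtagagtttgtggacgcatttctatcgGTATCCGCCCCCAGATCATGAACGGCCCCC
The lower-case part of the Ribeye form closes an exon of 1731 bases at chr7:133013518-133015248, and its annotated protein has 988 codons. The lower-case part of the 445-codon form comes from an exon of 160 bases and that of the 420-codon form from one of 104 bases.

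**Figure D3:**
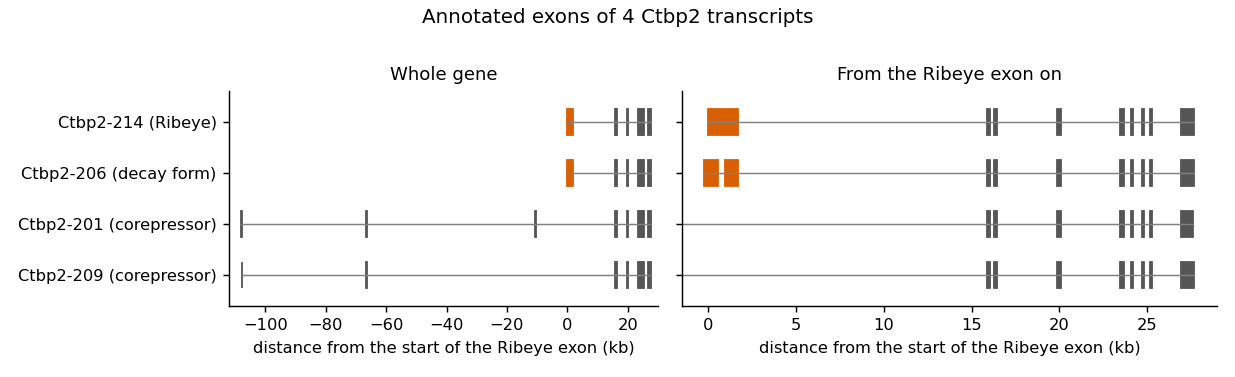
Annotated exons of 4 Ctbp2 transcripts against the distance in kb from the start of the Ribeye exon (x axis), for the whole gene (left) and from that exon on (right); the Ribeye exon is orange and exons are drawn to scale. The Ribeye form and the decay form share the orange exon region, and all 4, the 2 corepressor forms included, share the exons from 15.9 kb on.

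The Ribeye exon has a RefSeq start of its own, and the sequence around it is shown because this start sets the retinal form apart from the corepressor forms, whose first exons lie upstream. The window runs from 250 bases before to 50 after that start (GRCm38.p6, minus strand). Capitals mark the single match to TAATCC, the core bound by CRX, a homeobox factor of photoreceptors. The match reads GGATTA on the strand shown, 121 bases before the start.
Ribeye start, chr7:133015198-133015497: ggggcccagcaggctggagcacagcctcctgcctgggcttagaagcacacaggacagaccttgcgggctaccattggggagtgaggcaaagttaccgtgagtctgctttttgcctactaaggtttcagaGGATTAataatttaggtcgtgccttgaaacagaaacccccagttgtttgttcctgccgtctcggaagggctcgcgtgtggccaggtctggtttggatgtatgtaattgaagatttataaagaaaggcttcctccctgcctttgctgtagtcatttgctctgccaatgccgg
The window had 52.0% GC and 1 TAATCC on the reverse strand. TAATCC on either strand occurred in 7.06% of 32851 promoter windows of the same length, so the match is a description only. The shorter TAATC, which every TAATCC also contains, was found 26 bases before the Cacna1f start and in 22.0% of windows. The letters TGCTGA occurred in 19.5% of windows and in none of the members'. Neither TAATC nor TAATCC occurred in the windows of Bsn, Pclo, Dag1 and Egflam; Rims2, Cacna2d4 and Cabp4 had no window in the table.

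The Ctbp2 gene as a whole did not pass at either age. It had 123, 119 and 145 CPM in P28 knockout libraries, in the order 1, 2 and 3, against 119.9, 122 and 122 CPM in P28 wild type. At 12 months it had 114, 114 and 116 CPM in knockout and 123, 119 and 124 CPM in wild type. The groups overlapped at P28 and did not at 12 months, where knockout was lower in every library, but by little: the log2 difference was 0.08 ± 0.08 at P28 (limma, adjusted p = 0.600) and -0.09 ± 0.08 at 12 months (adjusted p = 0.401). Under quantile normalization the 12-month value was -0.23 (adjusted p = 0.0217), and with the GC and length trend removed it was 0.30 (adjusted p = 0.0931), so the direction of the whole gene depended on the scaling.

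The Ribeye transcript passed at 12 months, where the whole gene did not. The GC and length trend was removed for genes only, so no transcript value here or below has that correction. At 12 months the Ribeye form had 2.78, 1.02 and 2.50 RPKM (reads per kilobase and M reads) in knockout, against 6.61, 4.28 and 4.54 RPKM in wild type. Every knockout library was below every wild-type library, and knockout library 2 was the lowest of all 12. The transcript averaged 2.10 ± 0.946 RPKM in knockout and 5.14 ± 1.28 RPKM in wild type (SD, n = 3 each), and it fell by 1.17 ± 0.28 on the log2(RPKM + 0.5) scale (SE; limma over 46931 transcripts, adjusted p = 0.0236). In P28 libraries it had 3.53, 5.10 and 3.51 RPKM in knockout and 4.82, 4.88 and 3.84 RPKM in wild type. The P28 groups overlapped, and the difference was -0.15 ± 0.28 (adjusted p = 0.850). The test of the change in effect between ages gave -1.02 ± 0.40 (adjusted p = 0.259), so the effect is not shown to differ between P28 and 12 months. The call at 12 months was lost without 12-month knockout library 2 (-0.82, adjusted p = 0.0675), without 12-month wild-type library 1 (-0.99, adjusted p = 0.0918), without 12-month wild-type library 3 (-1.24, adjusted p = 0.0566) and with a term for sex (-1.02, adjusted p = 0.0986); with both knockout libraries numbered 2 left out it stayed (-0.82, adjusted p = 0.0276).

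In all, 6 of the 44 tested member transcripts passed at 12 months, all lower in knockout, where 17.1% of all tested transcripts passed and 10.6% passed as lower. They were the Ribeye form, the 445-codon Ctbp2 form, a coding and an intron-keeping form of Cacna1f, and the coding form of Cacna2d4, which is listed under 2 transcript IDs with identical values. The 445-codon corepressor form had 3.08, 3.14 and 3.37 RPKM in 12-month knockout, against 5.80, 4.89 and 5.34 RPKM in wild type, with no overlap; it fell by 0.66 ± 0.18 (adjusted p = 0.0330), a call lost without 12-month knockout library 1 or 2 or any 1 of the 12-month wild-type libraries (-0.60 to -0.72, adjusted p from 0.0603 to 0.114), with a term for sex (-0.76, adjusted p = 0.0644) or with the replicate block (adjusted p = 0.0526). The 420-codon corepressor form, which made up 69.8% of the gene's RPKM, had 38.2, 44.4 and 38.1 RPKM in 12-month knockout and 32.0, 36.8 and 37.7 RPKM in wild type. Its difference, 0.18 ± 0.17, did not pass (adjusted p = 0.483), although the lowest knockout library lay above the highest in wild type. A form annotated for nonsense-mediated decay shares 1339 of the 1737 bases that the Ribeye form has outside the corepressor forms. It had 5.29, 5.001 and 6.03 RPKM in 12-month knockout and 7.53, 5.41 and 6.01 RPKM in wild type, which overlapped (-0.19 ± 0.15, adjusted p = 0.393). The authors' values divide reads over forms that share most of their bases, and the part of that division in the Ribeye result was not tested.

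As a share of the summed RPKM of all Ctbp2 transcripts, Ribeye RNA was 5.51, 1.89 and 4.88% in 12-month knockout and 12.3, 8.10 and 8.30% in 12-month wild type. The shares did not overlap; the means were 4.09 ± 1.94% and 9.56 ± 2.37% (SD, n = 3 each), a difference of -5.47 percentage points. The two-sided exact permutation test gave p = 0.1, the smallest that 3 against 3 allows. At P28 the shares were 6.23, 10.5 and 5.60% in knockout and 9.19, 9.03 and 6.82% in wild type, which overlapped (-0.913 points, exact permutation p = 0.8). Permuting genotype within age over both ages gave -3.19 points (exact p = 0.06, smallest possible 0.005). Within knockout, the share was 3.34 points lower at 12 months than at P28 (exact permutation p = 0.1).

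**Figure D4:**
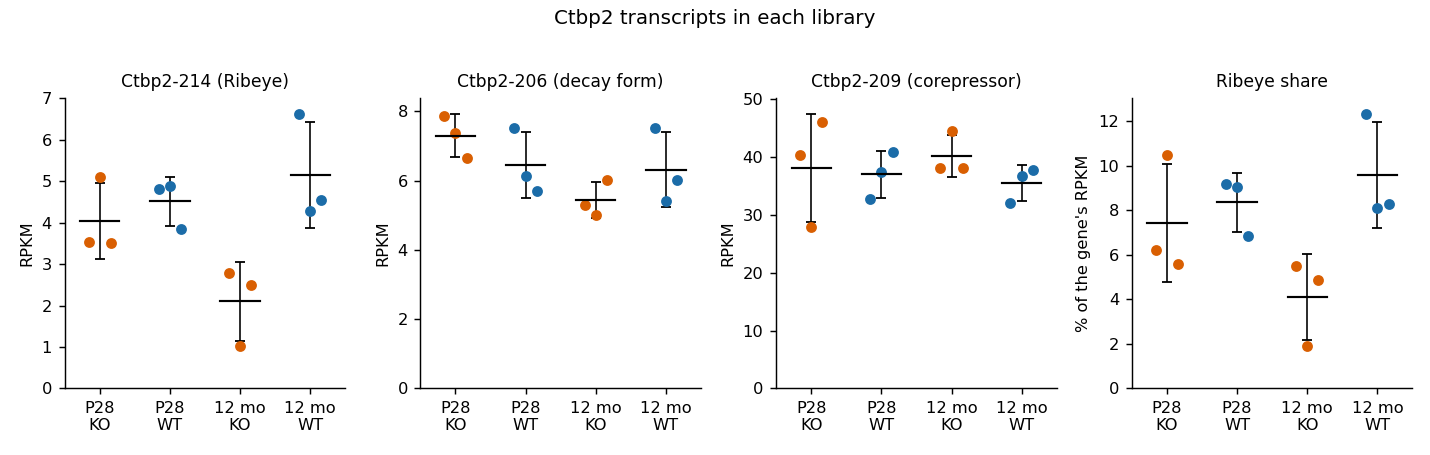
RPKM of the Ribeye form, the decay form and the 420-codon corepressor form of Ctbp2 and the Ribeye share in percent of the gene's RPKM (y axes, from 0) in each library, knockout in orange and wild type in blue; lines are means and bars the SD of 3 libraries. In 12-month knockout the Ribeye form lies between 1.02 and 2.78 RPKM, below every other group's library, while the corepressor form lies between 38.1 and 44.4 RPKM.

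Bsn (chromosome 9, minus strand, 108096022 to 108190384) encodes bassoon, the scaffold that ties the ribbon to the active zone; without it ribbons float free in mouse rods. At 12 months it had 49.5, 45.8 and 59.1 CPM in knockout and 65.2, 64.3 and 76.5 CPM in wild type. All knockout libraries lay below the wild-type libraries, the nearest at 59.1 and 64.3 CPM. Bsn averaged 51.5 ± 6.85 CPM in knockout and 68.7 ± 6.85 CPM in wild type (SD, n = 3 each) and fell by 0.41 ± 0.13 on the log2 scale (limma, adjusted p = 0.0278). P28 knockout had 62.1, 48.6 and 54.8 CPM and P28 wild type 50.5, 67.8 and 58.7 CPM, which overlapped (-0.09 ± 0.13, adjusted p = 0.731). Bsn's transcript is GC-rich (59.8%, the 95.9th percentile of tested genes) and long (the 99.7th percentile), and with the GC and length trend removed its 12-month difference was 0.12 (adjusted p = 0.637), so the call was lost and the direction reversed. The call was also lost without 12-month knockout library 1 or 2 (adjusted p = 0.0767 and 0.112) and without 12-month wild-type library 1 or 3 (adjusted p = 0.0559 and 0.111). It was lost as well with no expression filter (adjusted p = 0.0651) and by summed transcript RPKM (adjusted p = 0.0670). The same held with both knockout libraries numbered 2 left out (adjusted p = 0.0663) and with a sex term added to the trend removal (-0.061, adjusted p = 0.870). The transcript values follow a 3′ fragment that held 96.5% of the gene's RPKM, while the full-length form averaged 0.267 RPKM.

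Pclo (chromosome 5, plus strand, 14514918 to 14863459) encodes piccolo and, in ribbon synapses, the shorter piccolino, which is made when an intron is kept and brings a stop codon. The deposited transcripts include such a form, which keeps intron 5 of the full-length transcript (chr5:14680014-14680369, 356 bases). The sequence below runs from the last 30 bases before the intron to just past the stop, and is shown because it is the point where the long and the short protein part; capitals mark the in-frame TGA, after 22 codons read in the intron.
Pclo intron-keeping form: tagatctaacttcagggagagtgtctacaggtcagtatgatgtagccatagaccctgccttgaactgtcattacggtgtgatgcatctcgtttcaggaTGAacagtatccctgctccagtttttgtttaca
Read to this stop the form has 2984 codons, 58.9% of the 5068 of the full-length form, and the coding sequence up to the intron is the same.

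The gene had 397, 388 and 374 CPM in 12-month knockout and 318, 339.8 and 352 CPM in wild type; the groups did not overlap, but the difference of 0.20 ± 0.12 did not pass (limma, adjusted p = 0.191). P28 knockout had 326, 398 and 378 CPM and P28 wild type 255, 359 and 316 CPM, with overlap (0.25 ± 0.12, adjusted p = 0.233). After removal of the GC and length trend both differences had the other sign, -0.10 at 12 months and -0.14 at P28; Pclo's transcript is among the longest tested (the 99.9th percentile). The full-length form had 9.42, 9.30 and 8.72 RPKM in 12-month knockout and 5.97, 6.40 and 6.79 RPKM in wild type. Its groups did not overlap, though the difference of 0.49 ± 0.22 did not pass (adjusted p = 0.140). The intron-keeping form had 2.70, 1.89 and 2.78 RPKM in 12-month knockout and 3.54, 3.51 and 2.51 RPKM in wild type, with overlap (-0.32 ± 0.40, adjusted p = 0.597). Of the 2 forms together, the intron-keeping one was 22.3, 16.9 and 24.2% in 12-month knockout and 37.2, 35.5 and 27.0% in wild type, a difference of -12.1 points with no overlap (exact permutation p = 0.1, the smallest possible). Taken of all Pclo RPKM, of which a form of 1591 codons without an annotated start held 61.4%, the intron-keeping form was 7.92, 5.33 and 8.50% in 12-month knockout and 13.1, 12.0 and 8.37% in wild type, which overlapped (-3.89 points, exact permutation p = 0.2). At P28 the shares of the 2 forms together were 14.3, 52.4 and 15.5% in knockout and 37.9, 22.1 and 19.3% in wild type. Library 2 of the P28 knockout stood apart at 52.4%, with 7.53 RPKM of the intron-keeping form (0.913 points, exact permutation p = 1).

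Rims2 (chromosome 15, plus strand, 39198261 to 39684372) encodes RIM2, which in mouse photoreceptors promotes opening of the CaV1.4 channels. Its libraries separated by genotype at both ages. At 12 months it had 431, 468 and 400.0 CPM in knockout and 339, 352 and 347 CPM in wild type; at P28 it had 419.8, 463 and 449 CPM in knockout and 366, 381 and 359 CPM in wild type. Every knockout library lay above every wild-type library of its age. The rise at 12 months was 0.32 ± 0.08 on the log2 scale (limma, adjusted p = 0.00861), while the P28 difference, 0.27 ± 0.08, did not pass (adjusted p = 0.0942). With both knockout libraries numbered 2 left out, Rims2 passed at P28 as well (0.24, adjusted p = 0.0469). It passed at P28 in that setting alone, which was chosen after seeing the data. In the other settings its adjusted p at P28 reached 0.485. The 12-month call was kept with the GC and length trend removed (0.24, adjusted p = 0.0419) and lost under quantile normalization (0.10, adjusted p = 0.311) and with a sex term added to the GC and length removal (0.26, adjusted p = 0.106).

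The forms of Rims2 differed in direction at 12 months. A short 3′ form of 285 codons, with 49.6% of the gene's RPKM, had 80.9, 110.3 and 85.1 RPKM in knockout, against 50.1, 55.6 and 63.2 RPKM in wild type. A form of 1296 codons, with no annotated start, had 16.2, 12.6 and 12.6 RPKM in knockout and 20.02, 18.9 and 16.1 RPKM in wild type. The short form was higher in knockout with no overlap. The 1296-codon form was lower, with a slight overlap between 16.2 RPKM in knockout and 16.1 RPKM in wild type. Neither difference passed (0.70 ± 0.24, adjusted p = 0.0722, and -0.40 ± 0.14, adjusted p = 0.0762). Longer coding forms did not pass either. The form of 1572 codons averaged 5.27 RPKM in 12-month knockout and 5.59 RPKM in wild type. The form of 1530 codons averaged 2.14 RPKM in 12-month knockout and 1.59 RPKM in wild type. The short form made up 54.8, 64.0 and 60.8% of Rims2 RPKM in 12-month knockout and 43.5, 46.2 and 53.0% in wild type, 12.3 points more (exact permutation p = 0.1, the smallest possible). At P28 the short form's share was 51.4, 26.1 and 50.1% in knockout and 42.6, 49.5 and 48.7% in wild type, with knockout library 2 far below the rest (-4.41 points, exact permutation p = 1).

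**Figure D5:**
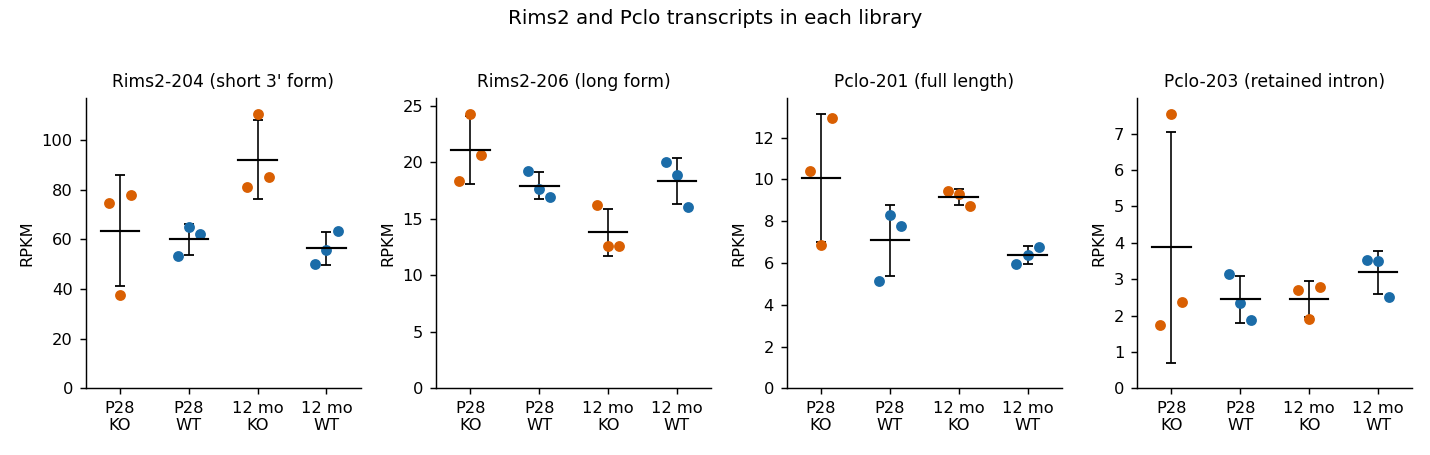
RPKM (y axes, from 0) of the short and the 1296-codon Rims2 form (titled long form, though longer forms are annotated) and of the full-length and the intron-keeping Pclo form in each library, knockout in orange and wild type in blue; lines are means and bars the SD of 3 libraries. In 12-month knockout the short Rims2 form lies between 80.9 and 110.3 RPKM, above the wild type, and P28 knockout library 2 is the lowest for that form (37.7 RPKM) and the highest for the intron-keeping Pclo form (7.53 RPKM).

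Cacna2d4 (chromosome 6, plus strand, 119236526 to 119352407) encodes alpha2delta4, the extracellular subunit that carries CaV1.4 to the photoreceptor terminal. At 12 months it had the log2 difference farthest from 0 among the 9 genes, with 247, 160.1 and 261 CPM in knockout and 382, 346 and 371 CPM in wild type. Every knockout library lay below the wild type, with library 2 lowest. Cacna2d4 averaged 223 ± 54.6 CPM in knockout and 366 ± 18.3 CPM in wild type (SD, n = 3 each) and fell by 0.75 ± 0.18 on the log2 scale (limma, adjusted p = 0.00831). In P28 libraries it had 375, 437 and 278 CPM in knockout and 341, 335 and 288 CPM in wild type, which overlapped in full (0.16 ± 0.18, adjusted p = 0.663). The fall at 12 months was -0.53 with both knockout libraries numbered 2 left out (adjusted p = 0.00753) and -0.60 with the GC and length trend removed (adjusted p = 0.0347), and it missed the threshold with a sex term added to that removal (-0.64, adjusted p = 0.0964).

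Its main coding form fell too. This form, of 1144 codons, had 15.4, 12.3 and 17.2 RPKM in 12-month knockout and 26.4, 24.3 and 25.6 RPKM in wild type, with no overlap. It fell by 0.76 ± 0.15 (adjusted p = 0.0131), a call lost without 12-month wild-type library 1 (-0.73, adjusted p = 0.0593). A non-coding form of 2578 bases had 16.4, 9.72 and 17.8 RPKM in 12-month knockout and 21.5, 20.7 and 21.7 RPKM in wild type; knockout was again lower in every library, but the difference of -0.57 ± 0.19 did not pass (adjusted p = 0.0608).

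Cacna1f (chromosome X, plus strand, 7607083 to 7635196) encodes the pore of CaV1.4. Its genotype difference was above 0 at P28 and below 0 at 12 months in the deposited values. At P28 it had 394, 349.7 and 316 CPM in knockout and 274, 294 and 212 CPM in wild type, with every knockout library above the wild type (0.45 ± 0.15, limma, adjusted p = 0.114). In 12-month libraries it had 271, 273 and 360.3 CPM in knockout and 310.0, 352 and 389 CPM in wild type, with overlap (-0.22 ± 0.15, adjusted p = 0.240). Neither passed, nor did the difference between ages, -0.67 ± 0.21 (adjusted p = 0.0912). With the GC and length trend removed the 12-month value was -0.014 (adjusted p = 0.956) and the P28 value 0.37 (adjusted p = 0.182).

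Among its 11 transcripts, the coding form of 1984 codons had 3.64, 0.294 and 4.75 RPKM in 12-month knockout and 11.8, 5.68 and 15.3 RPKM in wild type. Knockout library 2 was nearly empty of this form, and the highest knockout library lay just below the lowest in wild type. It fell by 2.04 ± 0.60 (adjusted p = 0.0412); without 12-month knockout library 2 the value was -1.19 (adjusted p = 0.0835), and the call was also lost without 12-month knockout library 1, library 1 or 3 of the 12-month wild type, library 1 of the P28 knockout or any P28 wild-type library (-1.75 to -2.38, adjusted p from 0.0506 to 0.123) and with a term for sex (-2.21, adjusted p = 0.0974). At the younger age it had 5.57, 7.12 and 7.36 RPKM in knockout and 14.8, 10.2 and 10.1 RPKM in wild type, while the other full-length coding form, of 1977 codons, had 19.4, 15.6 and 14.6 RPKM in knockout and 11.3, 14.9 and 10.4 RPKM in wild type. The 1984-codon form was lower in each P28 knockout library and the 1977-codon form overlapped wild type; neither difference passed (-0.75 ± 0.60, adjusted p = 0.605, and 0.43 ± 0.16, adjusted p = 0.257). At 12 months the 1977-codon form had 11.2, 9.42 and 11.8 RPKM in knockout and 14.1, 17.4 and 14.9 RPKM in wild type (-0.50 ± 0.16, adjusted p = 0.0575). A form of 6622 bases that keeps an intron had 11.6, 6.50 and 13.8 RPKM in 12-month knockout and 18.5, 18.3 and 20.7 RPKM in wild type, and fell by 0.88 ± 0.26 (adjusted p = 0.0441); without 12-month knockout library 2 it had -0.58 (adjusted p = 0.149), and the call was also lost without 12-month knockout library 1, P28 knockout library 1 or any 1 of the wild-type libraries of either age (-0.82 to -0.97, adjusted p from 0.0519 to 0.117), with a term for sex (-1.04, adjusted p = 0.0764) and with the replicate block (adjusted p = 0.0715). Forms that keep introns made up 50.7 to 60.1% of Cacna1f RPKM over the 12 libraries. Their share was 56.3, 60.1 and 54.3% in P28 knockout and 50.7, 52.8 and 52.7% in P28 wild type, and 52.9, 51.6 and 53.5% in 12-month knockout against 56.0, 55.4 and 54.3% in 12-month wild type (4.86 and -2.51 points, exact permutation p = 0.1 at each age, the smallest possible).

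Cabp4 (chromosome 19, minus strand, 4135423 to 4144033) encodes the calcium-binding protein that shifts CaV1.4 to open at photoreceptor voltages. It has a second row on a patch sequence whose values are identical in every library. The gene levels given are the sum of both, while log2 differences and transcript levels are those of 1 copy. In P28 libraries it had 142, 133 and 139 CPM in knockout and 186, 157 and 164 CPM in wild type, with every knockout library below the wild type (-0.29 ± 0.09, limma, adjusted p = 0.0980; -0.13 with the GC and length trend removed, adjusted p = 0.443). In 12-month libraries it had 210.1, 182 and 186 CPM in knockout and 196, 211 and 206 CPM in wild type, with overlap (-0.09 ± 0.09, adjusted p = 0.456; 0.19 with that trend removed, adjusted p = 0.152). The main coding form, of 271 codons, followed at P28, with 19.5, 14.8 and 22.3 RPKM in knockout and 28.97, 21.5 and 25.8 RPKM in wild type, though here the groups overlapped (-0.43 ± 0.17, adjusted p = 0.277).

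In the cleft, Egflam (chromosome 15, minus strand, 7206120 to 7398395), which encodes pikachurin, had 126, 130.4 and 143 CPM in 12-month knockout and 156, 151 and 155 CPM in wild type. Knockout was lower in every library, and the difference of -0.21 ± 0.08 stood just outside the threshold (limma, adjusted p = 0.0576). It passed without P28 knockout library 2 or 3 (-0.21 in both, adjusted p = 0.0206 and 0.0459), without 12-month knockout library 3 (-0.26, adjusted p = 0.0372) and under quantile normalization (-0.39, adjusted p = 0.0103). With the GC and length trend removed it was -0.10 (adjusted p = 0.351), with a sex term -0.20 (adjusted p = 0.170) and with both -0.080 (adjusted p = 0.624). In P28 libraries it had 148, 169 and 144 CPM in knockout and 163, 158 and 151 CPM in wild type, with overlap (-0.03 ± 0.08, adjusted p = 0.851). The form of 1017 codons held 93.8% of the gene's RPKM, with 28.0, 30.2 and 31.4 RPKM in 12-month knockout and 34.1, 32.5 and 34.0 RPKM in wild type, lower in each knockout library (-0.17 ± 0.09, adjusted p = 0.214).

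Dag1 (chromosome 9, minus strand, 108204634 to 108263958) encodes dystroglycan, which pikachurin binds on the photoreceptor and which is also made by Mueller glia and vessels. It had 31.6, 29.2 and 33.9 CPM in 12-month knockout and 38.9, 34.2 and 41.2 CPM in wild type; the groups did not overlap, with 33.9 and 34.2 CPM the nearest pair, and the difference of -0.26 ± 0.11 did not pass (limma, adjusted p = 0.0789; -0.095 with the GC and length trend removed, adjusted p = 0.558). At P28 it had 47.4, 42.9 and 43.7 CPM in knockout and 38.5, 38.1 and 48.0 CPM in wild type, with overlap (0.11 ± 0.11, adjusted p = 0.611). Mueller glia genes summed to 2141 to 2426 CPM in 12-month knockout and 2507 to 2775 CPM in wild type, and their part in the Dag1 values was not tested.

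Between 12 months and P28 in knockout, 3 of 9 members passed (27.2% of all genes did), 1 higher (13.3% of all genes) and 2 lower (13.9%), a share near that of all genes. Cabp4 rose to 193 ± 15.2 CPM at 12 months, against 138 ± 4.61 CPM at P28 (0.48 ± 0.09, limma, adjusted p = 0.00272). Dag1 fell to 31.6 ± 2.37 CPM at 12 months, against 44.6 ± 2.42 CPM at P28 (-0.49 ± 0.11, adjusted p = 0.00801). Cacna2d4 fell to 223 ± 54.6 CPM, against 364 ± 80.4 CPM (-0.71 ± 0.18, adjusted p = 0.0138; SD, n = 3 each). Without 12-month knockout library 2 the Cacna2d4 call was lost (-0.49, adjusted p = 0.0530), as it was with the trend removed and a sex term (-0.56, adjusted p = 0.0900), and with the GC and length trend removed the Dag1 call was lost (-0.29, adjusted p = 0.0599). In wild type none of the 9 passed (5.40% of all genes did, and 2 members had an unadjusted p under 0.05, as had 19.5% of all genes); Cabp4 had 204.4 ± 8.05 CPM at 12 months and 169 ± 15.3 CPM at P28 (0.27 ± 0.09, adjusted p = 0.101), and Cacna1f had 350.4 ± 39.7 and 260.0 ± 42.6 CPM (0.44 ± 0.15, adjusted p = 0.114).

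The change of the genotype effect between ages passed in limma for 0 of 9 members, with 0.176% of all genes called; 3 members had an unadjusted p under 0.05, as had 26.7% of all genes. The lowest values were -0.90 ± 0.26 for Cacna2d4 (adjusted p = 0.0813), -0.67 ± 0.21 for Cacna1f (adjusted p = 0.0912) and -0.37 ± 0.16 for Dag1 (adjusted p = 0.161). Cacna2d4 and Cacna1f passed when P28 knockout library 3 was left out (-1.08, adjusted p = 0.0220, and -0.75, adjusted p = 0.0392) or when 12-month knockout library 3 was left out (-1.03, adjusted p = 0.0475, and -0.81, adjusted p = 0.0451). Of the 44 tested member transcripts, 0 passed at P28 (0.298% of all transcripts), and 10 had an unadjusted p under 0.05, as had 14.7% of all transcripts. None passed in limma for the change between ages (0.0107% of all transcripts); 12 had an unadjusted p under 0.05, all lower, as had 16.6% of all transcripts in either direction. Between ages, 3 member transcripts passed in knockout (8.01% of all transcripts), 1 higher (4.41%) and 2 lower (3.60%). The coding Cabp4 form rose by 0.64 ± 0.17 (adjusted p = 0.0448), while the non-coding Cacna2d4 form fell by 1.05 ± 0.19 (adjusted p = 0.0106). The Rims2 form of 1296 codons, which has no annotated start, fell by 0.59 ± 0.14 (adjusted p = 0.0318). With the replicate block or a sex term the Cacna2d4 form alone passed: Cabp4 had adjusted p = 0.0693 and 0.166, and Rims2 0.0512 and 0.174. Of the 12 fits without 1 library, the Cabp4 call was kept in those without P28 knockout library 3 or 12-month knockout library 3, and the Rims2 call was lost without P28 knockout library 2, 12-month knockout library 2 or 3 or 12-month wild-type library 2. In wild type 0 passed between ages (0.820% of all transcripts); 3 had an unadjusted p under 0.05, as had 10.2% of all transcripts.

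Per kilobase of transcript, the order of the 9 levels over the 12 libraries was led by Cabp4, with a median of 128 CPM per kb (range 92.6 to 148). Rims2 followed at 81.4 (70.6 to 97.5), then Cacna2d4 at 58.3 (27.6 to 75.4), Cacna1f at 51.5 (34.9 to 64.9), Ctbp2 at 33.6 (31.7 to 40.2) and Egflam at 31.6 (26.3 to 35.5). Among these 6 the ranges of neighbours overlapped throughout. Pclo stood at 17.7 (12.7 to 19.8), Dag1 at 6.84 (5.15 to 8.47) and Bsn at 3.69 (2.87 to 4.80) CPM per kb, each with a range apart from its neighbours'. Each level was divided by the length of 1 transcript per gene, so genes with much of their RNA in shorter annotated forms, such as Bsn, Pclo and Rims2, are understated.

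The wider machinery around these genes also held genes that moved each way at 12 months, where 16.1% of all genes were called higher and 23.5% lower. Most of these calls were lost with the GC and length trend removed, as were most over all genes (39.6% called as deposited, 11% without the trend). Of 17 other active zone scaffold genes tested, 4 rose and 8 fell (median log2 difference -0.17, against -0.03 over all genes). Unc119, which binds Ribeye, fell to 251 CPM in knockout, against 535 CPM in wild type (-1.14 ± 0.23, adjusted p = 0.00398). Tulp1, needed for the photoreceptor terminal, fell to 187 against 324 CPM (-0.82 ± 0.16, adjusted p = 0.00371), and the liprins Ppfia4 and Ppfia3 fell by 0.72 and 0.93 on the log2 scale (adjusted p = 0.00421 and 0.00536). With the trend removed 1 gene of this list passed as higher and 2 as lower; Unc119 was kept (-0.49, adjusted p = 0.0430) and Tulp1 was not (-0.20, adjusted p = 0.169). At P28 the gene of this list that passed was Erc1, an ELKS scaffold, at 35.4 CPM in knockout and 22.5 CPM in wild type (0.63 ± 0.14, adjusted p = 0.0457), a call also lost with the trend removed (0.41, adjusted p = 0.0938). Of 15 calcium channel partners, 3 rose and 5 fell (median -0.18). Cabp1, a relative of Cabp4, had 20.96 CPM in knockout and 56.2 CPM in wild type (-1.43 ± 0.24, adjusted p = 0.00281). The scarce channel beta subunits Cacnb1 (2.51 against 5.59 CPM) and Cacnb3 (4.21 against 10.3 CPM) fell by 0.92 and 1.13 (adjusted p = 0.00367 and 0.00389). Cacnb4, a more abundant beta subunit, lay the other way, with 95.3 CPM in 12-month knockout and 61.5 CPM in wild type. Over both ages Cacnb4 rose by 0.42 (limma, adjusted p = 0.00982), and with the trend removed it had 0.017 (adjusted p = 0.921). At 12 months Cabp1 alone of this list passed with the trend removed (-0.96, adjusted p = 0.0154).

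Of 11 genes of the vesicle release machinery, 1 rose and 5 fell at 12 months (median -0.14). Cplx3, a complexin of ribbon terminals, had 66.1 CPM in knockout and 143 CPM in wild type (-1.11 ± 0.18, adjusted p = 0.00263). Cplx4, another complexin of this list, had 605 CPM in 12-month knockout and 614 CPM in wild type. Slc17a7, the vesicular glutamate transporter, had 398 against 673 CPM (-0.78 ± 0.15, adjusted p = 0.00332), and Rab3a and Syp, both of synaptic vesicles, fell by 0.79 and 0.58 (adjusted p = 0.00311 and 0.00570). With the trend removed Cplx3 alone passed (-0.94, adjusted p = 0.0132), and Slc17a7 had -0.21 (adjusted p = 0.113). Of 16 trans-synaptic and ON bipolar partners, 2 rose and 6 fell (median -0.31); Gpr179, which anchors the signalling complex of the ON bipolar dendrite and binds pikachurin, had 63.5 CPM in knockout and 108 CPM in wild type (-0.78 ± 0.16, adjusted p = 0.00407). Elfn2 and Rgs11 fell by 0.94 and 0.93 (adjusted p = 0.00404 and 0.00360). With the trend removed 3 of this list passed as lower, Elfn2 among them (-0.44, adjusted p = 0.0388), while Gpr179 had -0.37 (adjusted p = 0.0653). Summed bipolar cell genes stood at 1397 to 1452 CPM in 12-month knockout and 1313 to 1349 CPM in wild type.

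Around dystroglycan, 4 of 15 complex members and ligands rose and 3 fell at 12 months (median 0.18). Dmd, whose short products join dystroglycan to the cytoskeleton in retina, had 449 CPM in knockout and 318 CPM in wild type (0.50 ± 0.10, adjusted p = 0.00355), while Nrxn2 and Dtnb fell by 0.95 and 0.99 (adjusted p = 0.00518 and 0.00882). Of 13 genes that put sugars on dystroglycan, which pikachurin needs to bind, 2 rose and 6 fell (median -0.12). Gmppb, a low gene at 0.816 CPM in knockout and 2.32 CPM in wild type, fell by 0.86 (adjusted p = 0.00346). Pomt1, at 9.17 CPM in knockout and 15.1 CPM in wild type, fell by 0.71 (adjusted p = 0.0196). With the trend removed Dtnb alone passed of these 2 lists (-1.23, adjusted p = 0.0211), and Dmd had 0.0081 (adjusted p = 0.965). Apart from Erc1, no gene of these lists passed at P28, and none passed for the change between ages.

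Over the 12 libraries, the members' levels on the log2(CPM + 1) scale did not follow one another closely. The highest Pearson r between members was 0.830, for Cacna2d4 and Egflam, and the lowest was -0.731, for Bsn and Rims2; the libraries share genotype, age, sex and GC differences, so these values describe the libraries and carry no p. Of all other tested genes, those near each member included Carmil3 (r = 0.985) and Kdm6b (0.983) for Cacna2d4, Ggact (0.972) and Bbs4 (0.971) for Cabp4, and Socs6 (0.962) and Snap91 (0.954) for Rims2. For Egflam they were Odf2 (0.956) and Pik3r5 (0.954), for Bsn Muc3a (0.954) and Osbp (0.937), and for Pclo Ubap2l (0.927). Dag1 lay nearest to Gstm7 (0.937) and Pcdhgc4 (0.925). Ctbp2 and Cacna1f had no neighbour above 0.9: Eif2ak1 (0.868) and Map2k5 (0.849) came nearest to Ctbp2, and Zfp446 (0.860) and Gripap1 (0.859) nearest to Cacna1f.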

How the data were processed

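RNA was sequenced with the TruSeq Stranded mRNA kit as 125-base paired reads, per the labels' protocols. The authors quantified transcripts with kallisto 0.45.0 against Ensembl 102, summed them to genes with tximport 1.30.0, and turned gene counts into CPM, TMM-scaled with edgeR 4.0.3, per the submitters' processing notes. The notes name the human GRCh38.p7, but 51903 of the 53028 gene IDs were found in mouse GENCODE M21 (GRCm38) and 51760 matched it in chromosome and in at least 1 end, so GRCm38 coordinates are given. The deposited gene values are a signal, CPM of TMM-scaled libraries, and the deposited transcript values are RPKM as the authors give them. Between 11.0% and 28.4% of low values came out as whole reads (within 0.01 reads), so counts were not recovered and no count test was run.

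The members and all gene lists were chosen with earlier results of these data known. The gene test was run in limma 3.58.1 (R 4.3.3) on the log2 of CPM + 1 for the 16486 genes that reached 1 CPM in at least 3 libraries, with 4 group means, moderated variances with a trend and Benjamini-Hochberg adjustment over all genes at 0.05. Transcripts with at least 0.5 RPKM in at least 3 libraries (46931) were tested on log2(RPKM + 0.5). The GC and length trend was not removed from transcript values. Shares were compared with two-sided exact permutation tests. Fold changes on these scales understate changes of low genes. Named were every member, its transcripts of at least 0.5 mean RPKM, up to 4 genes per list and comparison by smallest p, and the 2 nearest genes per member by correlation. Some genes that this rule names are not reported here. On data simulated for the P28 comparison (16486 genes), 5.97% of 67 genes changed by 0.5 on the log2 scale were recovered, 86.6% of 67 changed by 1 and 100% of 66 changed by 2. Of the genes called there, 7.25% were false. The simulation gave every gene the same dispersion and held no GC or length trend. The members' own spread differed between genes, so these rates are not the power for the members. Alternatives changed the pseudocount, filter, normalization, unit, replicate block, sex term, GC and length trend and the libraries used; the combined GC, length and sex setting, the omission of both knockout libraries numbered 2, the addition of the Ctbp2 decay form to Ribeye, the trend removal for the partner lists and the alternatives for transcripts between ages in knockout were chosen after seeing the data. Python 3.11.15 with numpy 2.4.6, pandas 2.3.3, scipy 1.17.1 and matplotlib 3.10.9 was used for the rest.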

Additional observations from a re-analysis of the deposited data

How the results depend on the processing

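Counts of members called kept within 1.5 times of their values in most settings. With both knockout libraries numbered 2 left out, 1 member passed at P28 (Rims2) and 1 between ages in wild type. With the GC and length trend removed, 1 member passed over both ages; with a sex term added to that removal, 0 passed at 12 months, 1 over both ages and 1 between ages in knockout. Under quantile normalization 5 passed between ages in knockout. With a term for sex, 2 member transcripts passed at 12 months. Between ages in knockout, 1 member transcript passed with the replicate block, with a sex term or with both knockout libraries numbered 2 left out, 5 passed with a minimum of 2 RPKM, and 1 to 8 passed with 1 library left out. Leaving out 1 library at a time gave 0 to 0 members at P28, 2 to 4 at 12 months, 1 to 4 over both ages, 0 to 2 for the change between ages and 2 to 4 between ages in knockout, and 0 to 9 transcripts at 12 months (0 without 12-month wild-type library 1). The Ribeye share difference at P28 was 0.363 points with the decay form added to the long form and ranged from -2.43 to 0.00716 points with 1 library left out. Over both ages it was -3.40 points with both knockout libraries numbered 2 left out (exact permutation p = 0.03), a setting chosen after seeing the data. It ranged from -3.95 to -2.51 points over both ages with 1 library left out. Across all alternative settings the exact permutation p over both ages ranged from 0.01 to 0.22. At 12 months it ranged from -6.20 to -4.10 points. The cause of these changes was not tested.

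Same-numbered libraries did not deviate together (residual correlations from -0.357 to 0.309); between the 12-month groups they were 0.0989, 0.309 and 0.156 and between the P28 groups 0.0879, -0.107 and 0.0476, so the numbers are not taken to pair them. With the replicate block, 3 members passed at 12 months, 0 at P28, 3 over both ages and 3 between ages in knockout, as without it, and 4 member transcripts passed at 12 months, with the 445-codon Ctbp2 form (adjusted p = 0.0526) and the intron-keeping Cacna1f form (adjusted p = 0.0715) lost.

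Signs that turned, as log2 differences, were small or not past the threshold. With the GC and length trend removed, and with a sex term added to that, Ctbp2 had 0.30 and 0.36 at 12 months and 0.15 and 0.26 for the change between ages, Cabp4 had 0.19 and 0.20 at 12 months and 0.0308 in both settings over both ages, and Pclo had -0.14 and -0.0571 at P28, -0.10 and -0.18 at 12 months and -0.12 in both settings over both ages. Bsn had 0.12 at 12 months with the trend removed and 0.40 and 0.0419 for the change between ages, and Egflam had 0.0283 for that change in the second setting. Pclo's change between ages was 0.0396 with the trend removed, 0.0239 by summed RPKM, 0.0468 with a sex term, 0.00560 without P28 knockout library 2, 0.0790 without P28 wild-type library 1 and 0.00188 without both knockout libraries numbered 2. Pclo at 12 months was -0.00831 and the change of Rims2 was -0.0573 under quantile normalization, and the change of Rims2 was -0.00257 without 12-month knockout library 2. At P28 Ctbp2 was -0.00481 and Egflam 0.0118 without knockout library 3, and Bsn was 0.0751 with a sex term and 0.0121 without wild-type library 2. With 1 library left out at a time, the P28 values ranged from -0.00481 to 0.139 for Ctbp2, from -0.197 to 0.0121 for Bsn and from -0.104 to 0.0118 for Egflam, and the change between ages ranged from -0.168 to 0.0790 for Pclo and from -0.00257 to 0.111 for Rims2. The cause was not tested. Depth was 14.7 to 25.9 M reads, and its part in these changes was not tested. On data simulated for the P28 comparison, with the same dispersion for every gene, 5.97% of differences of 0.5 on the log2 scale were recovered. That rate does not give the power for a single member.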
